A study of Homo sapiens with 3 samples.

Results

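The 10 genes described here encode vimentin, cytoskeletal actins and proteins that cross-link, move, stabilise or anchor actin filaments (*VIM*, *ACTB*, *ACTG1*, *ACTN1*, *ACTN4*, *MYH9*, *TPM1*, *TAGLN*, *CAV1* and *ZYX*). They were chosen by name, and every region whose assigned gene list held one of them was taken. All 10 of the 21948 gene symbols in the merged region list had at least 1 region, and together they had 77 of 67965 regions.

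The regions come from chromatin immunoprecipitation and sequencing (ChIP-seq) of MDA-MB-231 LM2 cells, a strongly metastatic derivative of a human triple-negative breast cancer line. The series holds 1 ChIP with an antibody to H3.3 (6 µg of antibody), 1 ChIP with an antibody that recognises H3.1 and H3.2 together (4 µg of antibody), each from 30 µg of chromatin, and 1 input DNA, which was not analysed here. The headers of both ChIP columns name a GFP hairpin (shGFP), which the sample labels do not mention. With 1 library for each antibody there is no replicate check, no p-value is given, and every 95% interval of a height or fold covers counting error only. Intervals of medians reflect the spread between genes instead. Histone occupancy in 1 line offers no marker check of cell identity.

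H3.1 and H3.2 are placed in chromatin mainly when DNA is copied, whereas H3.3 can be placed at any time in the cell cycle, and it is known to gather where nucleosomes are often replaced, at active promoters and along transcribed genes. Actin filaments drive cell shape and crawling. Vimentin is the intermediate filament protein of mesenchymal cells and is a common marker of carcinoma cells that have lost epithelial traits, as the MDA-MB-231 line has.

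Each region carries 2 heights for each library, the mean and the highest pileup of reads over it. A fold is the mean height of H3.3 divided by that of H3.1/H3.2, and its interval comes from estimated tag numbers. The scaling between the libraries is not stated, so whether a fold lies above or below 1 holds relative to it. A promoter region overlapped the window from 7500 bases before to 2500 bases after the gene's start, a gene body region lay inside the gene beyond that window, and the rest lay further upstream or downstream. The promoter region nearest the start is the one whose centre lies nearest it, which disfavours long regions. Unless an edge is named, the distance of a region from the start is that of its centre. The 77 regions comprised 17 promoter, 46 gene body, 5 upstream and 9 downstream regions. They held about 24567 tags of H3.3 and 14038 of H3.1/H3.2, and a single region held 11 to 2184 tags of H3.3 and 3 to 1678 of H3.1/H3.2.

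The RefSeq promoter sequences (GRCh38.p14, 250 bases before to 50 bases after the annotated start) of 3 genes are shown because their regions met the start in different ways: no base of the *ACTG1* window lay in a region, 100 of 300 bases of the *VIM* window did, and all 300 bases of the *CAV1* window did. Capitals mark any of 6 motifs searched on both strands, namely the CArG box of serum response factor, TATAAA as the TATA box, CCAAT as the CCAAT box, GGGCGG as the GC box of SP1, TGANTCA as the AP-1 site and GGAATG as the TEAD site. Matches to the GC box can overlap each other.
ACTG1 (chr17:81512750-81513049, minus strand): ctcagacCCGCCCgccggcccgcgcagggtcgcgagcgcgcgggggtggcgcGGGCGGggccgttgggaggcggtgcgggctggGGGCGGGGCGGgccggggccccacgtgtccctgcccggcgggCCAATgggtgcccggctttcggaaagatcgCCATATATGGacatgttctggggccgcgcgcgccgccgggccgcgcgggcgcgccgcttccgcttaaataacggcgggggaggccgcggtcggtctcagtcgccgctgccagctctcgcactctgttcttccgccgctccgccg
VIM (chr10:17227991-17228290, plus strand): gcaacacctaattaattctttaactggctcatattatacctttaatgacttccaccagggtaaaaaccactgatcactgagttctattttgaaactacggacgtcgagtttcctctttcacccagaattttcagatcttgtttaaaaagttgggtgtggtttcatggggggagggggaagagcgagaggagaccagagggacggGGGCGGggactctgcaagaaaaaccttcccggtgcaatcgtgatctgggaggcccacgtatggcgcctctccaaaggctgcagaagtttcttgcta
CAV1 (chr7:116524759-116525058, plus strand): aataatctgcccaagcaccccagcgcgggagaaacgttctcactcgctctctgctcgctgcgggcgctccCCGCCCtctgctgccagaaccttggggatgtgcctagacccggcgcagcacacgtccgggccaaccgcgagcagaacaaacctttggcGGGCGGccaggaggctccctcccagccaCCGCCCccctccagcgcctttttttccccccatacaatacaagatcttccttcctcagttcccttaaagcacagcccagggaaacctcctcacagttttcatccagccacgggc
The *ACTG1* window held a CArG box beginning 94 bases before the start, and 1.29% of 35116 promoter windows in the table held one. It also held 1 CCAAT box and 4 GC boxes, which occurred at least once in 34.6% and 45.0% of all windows. The *CAV1* window had 3 GC boxes and the *VIM* window 1, and neither had any of the other motifs. GC content was 77.3% in *ACTG1*, 48.0% in *VIM* and 62.3% in *CAV1*, beside a median of 58.7% over all windows.

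H3.3 was the higher library at the promoter region nearest the start of every gene that had one. Of the 9 genes with a promoter region, 9 were at least 2-fold towards H3.3, as were 51.5% of all 17529 genes with one. None was at 0.5-fold or less, as were 6.40% of all genes. The median fold was 3.43 over the 9 genes and 2.05 over all genes. All 9 regions carried only the H3.3 call mark, and each fold had a counting interval above 1. Neither count has a share over all genes beside it. When every promoter region was counted, 14 of the 17 carried only that mark, as did 56.5% of all 23466 promoter regions. The other 3 of the 17 carried both marks. By the highest instead of the mean height, 7 of the 9 reached 2-fold, and *VIM* (22 in H3.3 and 12 in H3.1/H3.2) and *TAGLN* (21 in H3.3 and 14 in H3.1/H3.2) did not. After centring all folds on the median of all regions, 0.30 on the log2 scale, 8 of the 9 were past 2-fold towards H3.3 and still 0 towards H3.1/H3.2. The 51.5% of all genes holds for uncentred mean heights, and no share over all genes is given for either of these counts.

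**Figure D1:**
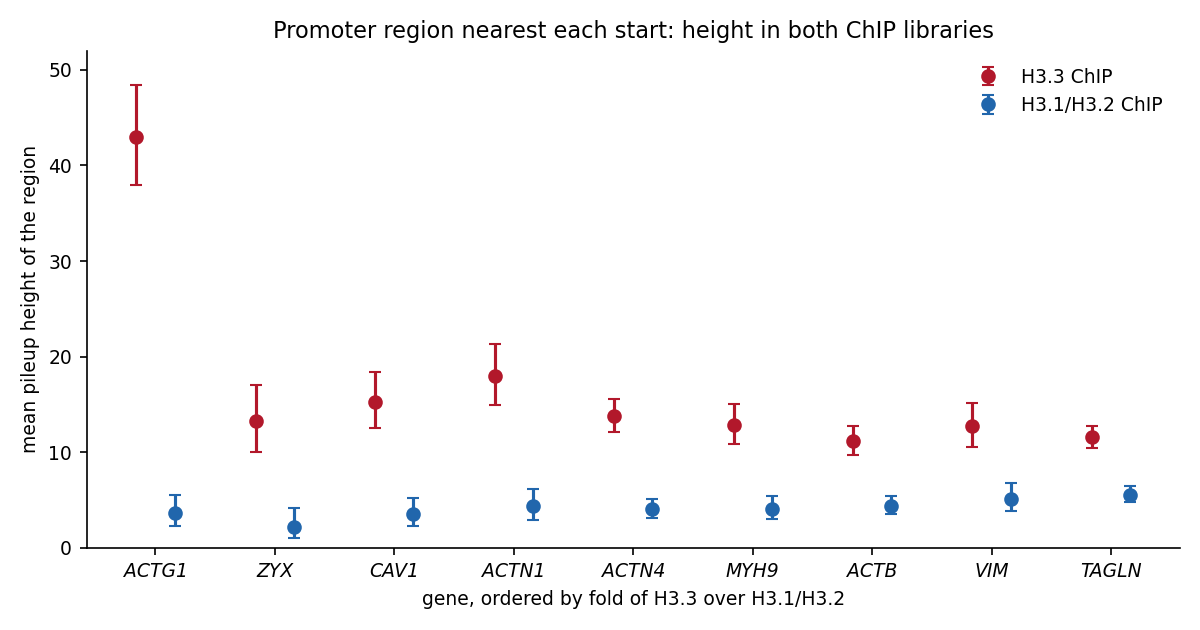
Mean pileup height of H3.3 (red, left of each pair) and H3.1/H3.2 (blue) in the promoter region nearest the start of 9 genes, with exact Poisson 95% intervals from tag numbers, 1 library each. H3.3 ran from 11.2 to 42.9 and H3.1/H3.2 from 2.18 to 5.57, and *ACTG1* stood apart in H3.3 alone.

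The cytoplasmic actins differed from each other in the region nearest the start, though not over all promoter regions. *ACTG1*, which encodes gamma actin, had a mean height of 42.9 (37.9 to 48.4) in H3.3, against 3.68 (2.33 to 5.53) in H3.1/H3.2 in the region centred 1033 bases upstream (chr17:81513200-81514599), and highest heights of 69 (H3.3) and 8 (H3.1/H3.2). The fold was 11.7 (7.60 to 18.7). This H3.3 height stood at percentile 99.98 of the nearest promoter regions of all genes, whereas the H3.1/H3.2 height stood at percentile 25.8. The region was also assigned to *FSCN2*, a retinal actin bundler, and to LOC105371928, so its signal cannot be ascribed to 1 gene. It is the nearest by its centre. By edges, the region over *ACTG1* itself lay nearer, 267 bases from the start, and had a fold of 4.22 (3.53 to 5.06). *ACTB*, which encodes beta actin, had a mean height of 11.2 (9.72 to 12.7) in H3.3, against 4.35 (3.50 to 5.41) in H3.1/H3.2 in the region centred 2198 bases upstream and reaching the start (chr7:5530600-5534999, shared with LOC221946), and highest heights of 25 (H3.3) and 12 (H3.1/H3.2). Its fold of 2.56 (1.98 to 3.31) did not overlap the interval of the 11.7-fold region of *ACTG1*. When all promoter regions of a gene were weighted by length, the log2 fold was 2.14 for *ACTG1* and 2.17 for *ACTB*.

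Along most of their length both actin genes lay inside regions with several times more H3.3 than H3.1/H3.2. A region of 10599 bases called in H3.3 alone ran over 76.8% of *ACTB* and on past its end (chr7:5519200-5529799), with a mean height of 20.3 in H3.3, against 3.75 in H3.1/H3.2, highest heights of 57 (H3.3) and 9 (H3.1/H3.2), and a fold of 5.42 (4.60 to 6.38). Its length stood at percentile 99.4 of regions called in H3.3 alone. It was also assigned to LOC221946 and *FBXL18*. At *ACTG1* a region of 7399 bases called in both ChIPs covered 92.9% of the gene, with a mean height of 19.5 in H3.3, against 4.62 in H3.1/H3.2 and a fold of 4.22 (3.53 to 5.06). Further upstream of *ACTG1*, 3 more regions, each also assigned to *FSCN2*, had folds of 3.27, 4.55 and 4.14, and the region beyond its end had 2.47 (1.60 to 3.76). All 6 regions assigned to *ACTG1* and all 4 assigned to *ACTB* were at least 2-fold towards H3.3, as were 36.0% of all 67965 regions. None of these regions was a gene body region. By kind, the share was 46.6% of all promoter, 38.7% of all upstream and 41.6% of all downstream regions.

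*VIM* lay wholly inside an H3.3 domain. The region chr10:17228200-17240399 spanned 12199 bases, covered 100% of the gene and stood at percentile 99.7 in length among regions called in H3.3 alone. Its mean height was 17.3 in H3.3, against 3.03 in H3.1/H3.2, its highest heights 50 (H3.3) and 15 (H3.1/H3.2), and its fold 5.69 (4.82 to 6.76). The nearest promoter region, centred 1036 bases upstream (chr10:17225800-17227999), was lower in H3.3 and higher in H3.1/H3.2, with a mean height of 12.8 (10.6 to 15.2) in H3.3, against 5.15 (3.87 to 6.83) in H3.1/H3.2, highest heights of 22 (H3.3) and 12 (H3.1/H3.2) and a fold of 2.48 (1.76 to 3.46). The intervals of these folds did not overlap. The RefSeq start of *VIM* lies 306 bases after the start used here, inside the long region. The nearest promoter region, with the 2.48-fold value, did not reach the RefSeq start. One more region lay 10836 bases upstream, with a mean height of 15.3 in H3.3, against 4.66 in H3.1/H3.2, and a fold of 3.27 (2.27 to 4.90). All of them were shared with the antisense gene *VIM-AS1*.

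The alpha-actinins cross-link actin filaments, and their genes are of similar length but carried the variants differently. In the promoter region nearest the start both leaned to H3.3. Neither region reached the start: that of *ACTN1* ended 33 bases before it, and that of *ACTN4* began 1783 bases after it, inside the gene. *ACTN1* had a mean height of 17.96 (14.96 to 21.3) in H3.3, against 4.39 (2.95 to 6.16) in H3.1/H3.2 in the region 833 bases upstream (chr14:68979400-68980999, shared with *ACTN1-AS1*), highest heights of 28 (H3.3) and 10 (H3.1/H3.2), and a fold of 4.09 (2.77 to 6.33). *ACTN4* had 13.8 (12.1 to 15.6) in H3.3, against 4.02 (3.16 to 5.08) in H3.1/H3.2 in the region 3783 bases downstream of its start (chr19:38649400-38653399), highest heights of 30 (H3.3) and 10 (H3.1/H3.2), and a fold of 3.43 (2.62 to 4.51). These intervals overlapped. The other promoter regions of these genes were closer to balance. *ACTN1* had a fold of 0.832 (0.757 to 0.914) in a region of 17999 bases that touched the window but lay mostly in the gene. Its interval lay below 1, and its fold was the lowest of the 17 promoter regions. *ACTN4* had 1.39 (0.926 to 2.09) in a region 7217 bases upstream, shared with *EIF3K*.

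Along the gene body *ACTN4* stayed on the H3.3 side and *ACTN1* did not. Over the 9 body regions of *ACTN4* the fold ran from 1.53 to 2.60 with a median of 1.90, and the interval lay above 1 in 9 of 9. Over the 8 body regions of *ACTN1* it ran from 0.712 to 1.79 with a median of 0.917, and the interval lay above 1 in 2, below 1 in 1 and included 1 in the rest. Weighted by the bases inside the gene, the mean height was 16.2 in H3.3, against 7.32 in H3.1/H3.2 over *ACTN4*, and 11.7 in H3.3, against 11.9 in H3.1/H3.2, over *ACTN1*. The genes therefore differed in both libraries, with less H3.3 and more H3.1/H3.2 over *ACTN1*. Regions covered 92.7% of *ACTN4* and 97.6% of *ACTN1*, beside a median of 21.9% over 13027 protein-coding genes matched to RefSeq.

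Within *ACTN4* the fold was lower in the first part of the body than in the second. In the 6 body regions centred 7383 to 30583 bases from the start it was 1.53 to 1.91. In the 3 centred 37583 to 75283 bases from the start, the last also assigned to *CAPN12*, it was 2.23 to 2.60. The longest of these (chr19:38689400-38715599, 26199 bases) had a mean height of 18.7 in H3.3, against 8.39 in H3.1/H3.2 and highest heights of 58 (H3.3) and 25 (H3.1/H3.2). Spearman's rank correlation between distance and log2 fold over the 9 body regions was 0.62 in *ACTN4*, and it was -0.55 over the 8 of *ACTN1*. These regions share both libraries and differ in length, and the correlations are descriptions only. Over the end of *ACTN4*, in a region also assigned to *CAPN12*, the fold was 3.22 (2.66 to 3.92). In the next regions, past the gene and assigned to both, it was 6.00 (1.98 to 35.03, from 20 H3.3 and 3 H3.1/H3.2 tags) and 5.29 (2.92 to 10.0).

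*MYH9* encodes the heavy chain of non-muscle myosin IIA, the motor that contracts actin bundles. In the promoter region centred 1768 bases into the gene (chr22:36385000-36387599, shared with LOC105377199) the mean height was 12.8 (10.9 to 15.1) in H3.3, against 4.03 (2.98 to 5.39) in H3.1/H3.2, highest heights were 23 (H3.3) and 8 (H3.1/H3.2), and the fold was 3.19 (2.27 to 4.50). Its 16 body regions ran from 1.17-fold to 2.78-fold with a median of 1.79, of which 7 were at least 2-fold and 12 had an interval above 1. None of them was below 1. The fold went up and down along the gene with no trend in distance (Spearman's rank correlation -0.03 over 16 regions): it was 2.78 (2.39 to 3.25) in a region of 11399 bases centred 33768 bases in, 1.33 (1.14 to 1.57) in the next, and 2.03 (1.86 to 2.22) in a region of 21599 bases centred 61468 bases in. Regions covered 94.2% of the gene.

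**Figure D2:**
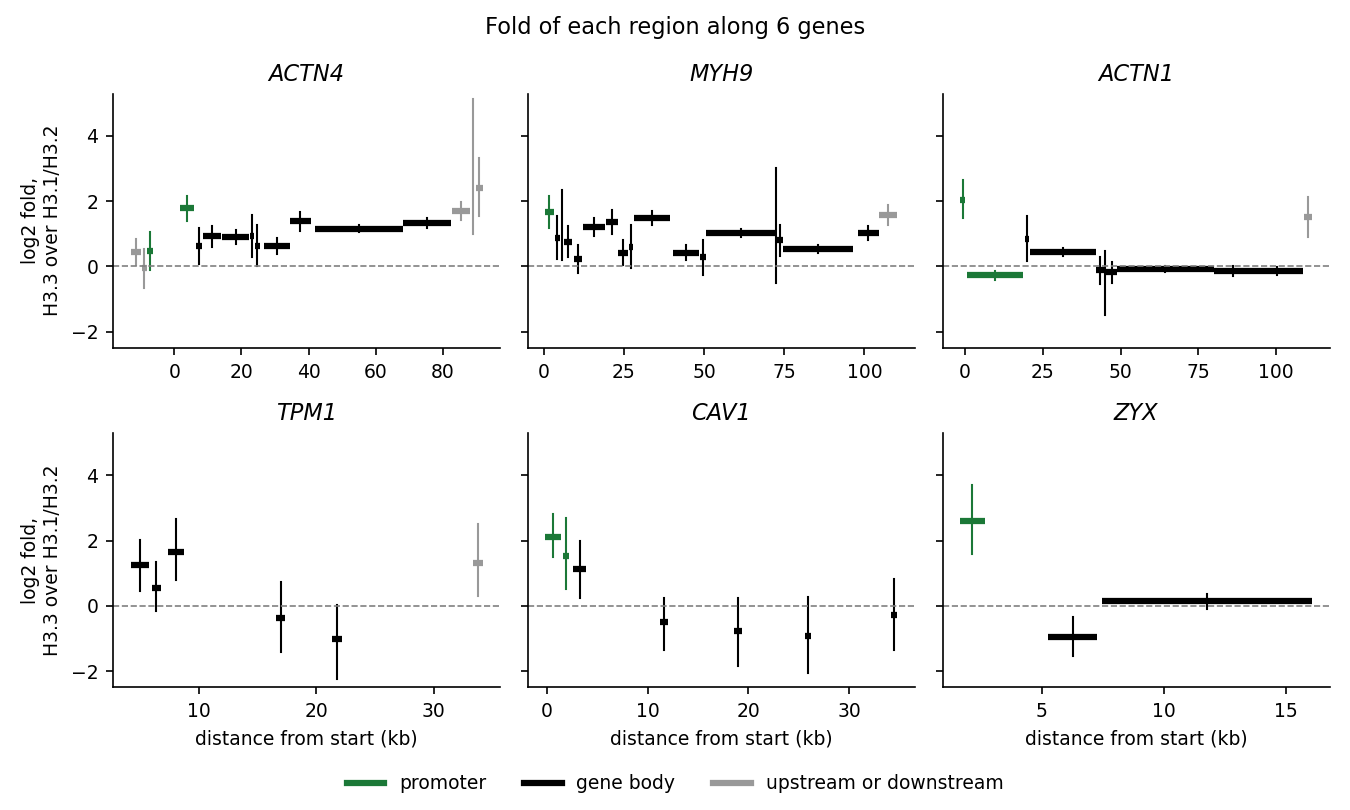
Log2 fold, H3.3 divided by H3.1/H3.2 (vertical axis), in each region along 6 genes by distance from the start in kb; horizontal bars span the regions and thin lines are counting 95% intervals. *ACTN4* and *MYH9* stayed above 0 in every body region, *ACTN1* ran near 0, and *TPM1*, *CAV1* and *ZYX* had values below 0 past their first kilobases, most with intervals that included 0.

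*CAV1*, *ZYX* and *TAGLN* leaned to H3.3 in the promoter region nearest the start and less, or not, further in, and *TPM1* had no promoter region. *CAV1* encodes caveolin-1, the coat protein of caveolae. It had a mean height of 15.2 (12.5 to 18.4) in H3.3, against 3.50 (2.27 to 5.17) in H3.1/H3.2 in the region that covered its start (chr7:116524600-116526199), highest heights of 27 (H3.3) and 6 (H3.1/H3.2), and a fold of 4.35 (2.80 to 7.03). The next regions had folds of 2.87 (1.43 to 6.40) and 2.16 (1.18 to 3.93). From 11614 to 34514 bases into the gene, 4 short regions were called in H3.1/H3.2 alone, with folds of 0.701, 0.580, 0.521 and 0.821. Each of their intervals included 1, from 18 to 35 tags of H3.1/H3.2. Regions covered 16.01% of *CAV1*.

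*TPM1* encodes a tropomyosin that lies along actin filaments and stabilises them. It had no region in its promoter window, and the nearest, 4960 bases into the gene, had a mean height of 7.14 in H3.3, against 3.02 in H3.1/H3.2 and a fold of 2.36 (1.38 to 4.01). The next had folds of 1.47 (0.887 to 2.51) and 3.12 (1.73 to 6.34). The RefSeq promoter table places an internal start of *TPM1* 5742 bases after the gene's first base, and 161 of the 300 bases of that window lay in the region with the 2.36-fold value. Deeper in the gene the folds were 0.767 (0.373 to 1.64) and 0.492 (0.210 to 1.02), and past its end 2.49 (1.23 to 5.67). The 0.492-fold region was the only one of the 77 at or below 0.5-fold.

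*ZYX* encodes zyxin, a LIM protein of focal adhesions and stress fibres. The region nearest its start (chr7:143380000-143380999) had a mean height of 13.3 (10.1 to 17.1) in H3.3, against 2.18 (1.08 to 4.12) in H3.1/H3.2, highest heights of 28 (H3.3) and 4 (H3.1/H3.2), and a fold of 6.09 (2.99 to 12.9). The table places the start of *ZYX* 3016 bases before that of RefSeq, so this region, inside the gene by the table, ended 346 bases short of the RefSeq start. Like the other regions of *ZYX*, it was also assigned to *FAM131B*, LOC100507507, *MIR6892* and *EPHA1*. The next region (chr7:143383600-143385599) carried only the H3.1/H3.2 call mark and had a mean height of 4.25 in H3.3, against 8.18 in H3.1/H3.2, with a fold of 0.520 (0.342 to 0.781), and the last, over the rest of the gene, was near balance at 1.10 (0.935 to 1.29). The first 2 intervals did not overlap.

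*TAGLN* encodes transgelin (SM22), an actin-binding protein of smooth muscle and fibroblasts. A region of 7399 bases spanned its start (chr11:117195400-117202799, shared with *SIDT2*, LOC100652768 and *PCSK7*), with a mean height of 11.6 (10.4 to 12.8) in H3.3, against 5.57 (4.79 to 6.44) in H3.1/H3.2, highest heights of 21 (H3.3) and 14 (H3.1/H3.2) and a fold of 2.08 (1.74 to 2.49). This was the lowest of the 9 promoter folds and stood at percentile 50.6 of all genes. The single body region, shared with the same genes, had 9.51 in H3.3, against 9.29 in H3.1/H3.2, a fold of 1.02 (0.766 to 1.36).

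In the order of promoter folds, *ACTG1* was followed by *ZYX*, *CAV1*, *ACTN1*, *ACTN4*, *MYH9*, *ACTB*, *VIM* and *TAGLN*. Every neighbouring pair in this order had overlapping intervals. The interval of *ACTG1* overlapped that of *ZYX* and of no other gene among the 9. The order rests on the choice of the nearest region: over all promoter regions weighted by length, *ZYX* (log2 fold 2.61), *VIM* (2.30), *ACTB* (2.17) and *ACTG1* (2.14) came first. The distances of these regions from the start, from 225 to 3783 bases, differed between genes, and only *CAV1*, *ACTN1* and *TAGLN* had one centred within 1000 bases.

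**Figure D3:**
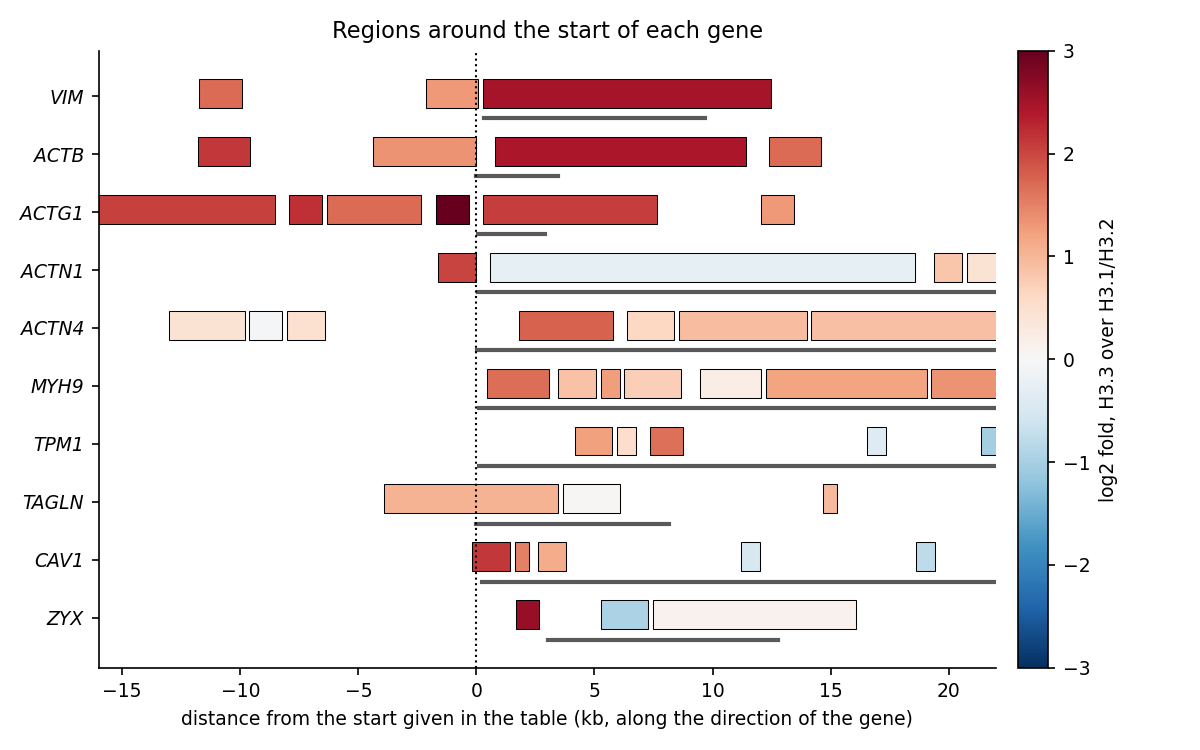
Regions (boxes, coloured by log2 fold, red for H3.3) around the start of each gene, with distance in kb from the start given in the table (dotted line) and the RefSeq gene as a grey line below. Boxes cover *VIM* and most of *ACTB* and *ACTG1*, and at 6 of the 10 genes no box reaches the dotted line.

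The start itself was often left out of the regions. It was covered by no region in 5 of the 9 genes with a promoter region, as in 39.6% of all genes with one, and *TPM1* made 6 of 10. The distance to the nearest region edge was 33 bases in *ACTN1*, 267 in *ACTG1*, 468 in *MYH9*, 1670 in *ZYX*, 1783 in *ACTN4* and 4160 in *TPM1*. With RefSeq starts the same 6 genes were uncovered, at 98, 200, 368, 346, 1751 and 4053 bases. In *ACTN1* and *ACTG1* the gap lay between an upstream region of 1599 or 1399 bases called in H3.3 alone and a long region called in both. Region edges fall on steps of 200 bases, so gaps of this size are known only to that step. At *ACTB* a region ended 1.5 bases past the start, within the same step.

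The 46 body regions belonged to 7 genes. At least 2-fold towards H3.3 were 13 of 46, as were 24.5% of all 44823 body regions, and at 0.5-fold or less was 1 of 46, as were 29.6% of all. The median fold was 1.52 for the 46 and 0.729 for all. Regions called in both ChIPs made up 22 of 46, beside 15.4% of all body regions, regions called in H3.1/H3.2 alone 9 of 46, beside 50.6%, and regions called in H3.3 alone 15 of 46, beside 34.0%. *MYH9* and *ACTN4* gave 16 and 9 of the 46. Counted once per gene, the median body fold was 1.02 over 7 genes and 1.09 over 10592 genes, so the medians were close when each gene counted once. By gene, 0 of the 7 were at least 2-fold towards H3.3, beside 34.4% of the 10592 genes. At 0.5-fold or less were also 0 of the 7, beside 22.9%. *VIM*, *ACTB* and *ACTG1* are not among the 7, because the regions over these short genes touched the promoter window and counted as promoter regions. Over the gene their folds were 5.69, 5.42 and 4.22. The body medians of *ACTN4*, *MYH9* and *ACTN1* stood at percentiles 67.7, 65.2 and 54.6 of 732 genes of 80 to 110 kb, a length range picked after these values were seen.

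In 6 genes with a promoter and a body region, the promoter log2 fold exceeded that of the body by a median of 1.59 (0.84 to 3.01, the full range), beside 0.60 over 8106 genes. The difference was at least 1 in 4 of the 6, beside 38.7% of the 8106 genes. It was positive in all 6, a count for which no share over all genes is given. The 9 downstream regions had a median fold of 2.98, from 1.95 at *TAGLN* to 6.00 at *ACTN4*. Of these 8 were at least 2-fold, as were 41.6% of all downstream regions. The 5 upstream regions were higher at *ACTB* (4.36), *ACTG1* (4.14) and *VIM* (3.27) than at *ACTN4* (1.35 and 0.966).

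A CpG island lay in 13 of the 17 promoter regions, beside 50.8% of all promoter regions, and in 5 of the 46 body regions, beside 9.75%. All 6 regions of *ACTG1* held one and none of the 3 of *TAGLN* did.

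Other genes of the actin and intermediate filament system were taken from a list of 98 genes in 9 groups. Of these 87 had a region and 80 a promoter region, of which 49 were at least 2-fold towards H3.3 (61.3%, beside 51.5% of all genes) and 0 were at 0.5-fold or less (beside 6.40%). The median log2 fold was 1.21 (0.99 to 1.40) for the 80 and 1.04 for all genes. Over the 64 listed genes with a body region the median was -0.17, beside 0.13 for all genes. Of the 64, 12 were at least 2-fold towards H3.3, beside 34.4% of all 10592 genes with a body region. At 0.5-fold or less were 9 of the 64, beside 22.9% of all.

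Among the other actins, only *ACTA2*, smooth muscle alpha actin, had a region, at 3.28-fold (2.23 to 4.94) and shared with *FAS*, *FAS-AS1* and LOC105378417. The skeletal, cardiac and enteric actin genes *ACTA1*, *ACTC1* and *ACTG2* and the actin-like gene *ACTBL2* had none. Of 24 genes of filament nucleation and turnover 12 were at least 2-fold, with *TMSB10*, a thymosin that binds actin monomers (5.42, 3.13 to 9.49), highest and *ARPC4*, a subunit of the Arp2/3 nucleator (0.661, 0.597 to 0.733, shared with *OGG1*, *TADA3* and *ARPC4-TTLL3*), lowest. Of 9 bundlers and cross-linkers 7 were, with *EZR*, ezrin, which links actin to the membrane (5.72, 2.05 to 17.96), highest. Of 7 myosin motor genes 5 were. The neighbouring light chain genes *MYL12A* (5.44, 3.56 to 8.76) and *MYL12B* were the highest and lowest of them. *MYL12B* had 6.74 in each library, with an interval of 0.582 to 1.72, in a region also assigned to *MYL12A*. Of 7 tropomyosin and calponin family genes 3 were at least 2-fold, with *CALD1*, caldesmon (3.75, 1.88 to 8.04), highest and *CNN1*, calponin 1 (1.47, 1.30 to 1.66, in a region 6065 bases from its start), lowest. The regions of *TMSB10*, *EZR*, *MYL12A*, *CALD1* and *CNN1* were also shared with other genes.

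Of 13 focal adhesion genes 8 were at least 2-fold. *TES*, testin, a LIM protein that binds zyxin, was the highest of the whole list (9.13, 4.51 to 20.4) and *ILK*, integrin-linked kinase, the lowest of the group (0.711, 0.613 to 0.823, shared with *RRP8*, *TAF10* and *TPP1*). All 4 caveolar genes were at least 2-fold, from *CAVIN3* (5.07, 3.97 to 6.66, shared with LOC101927825) to *CAVIN2* (2.73, 1.56 to 4.81). Of 7 intermediate filament and linker genes 5 were, with *NES*, nestin (7.60, 2.66 to 44.7, from 26 H3.3 and 3 H3.1/H3.2 tags), highest and *LMNA*, lamin A/C (1.90, 1.21 to 2.96, shared with *MEX3A*), lowest of the 7.

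**Figure D4:**
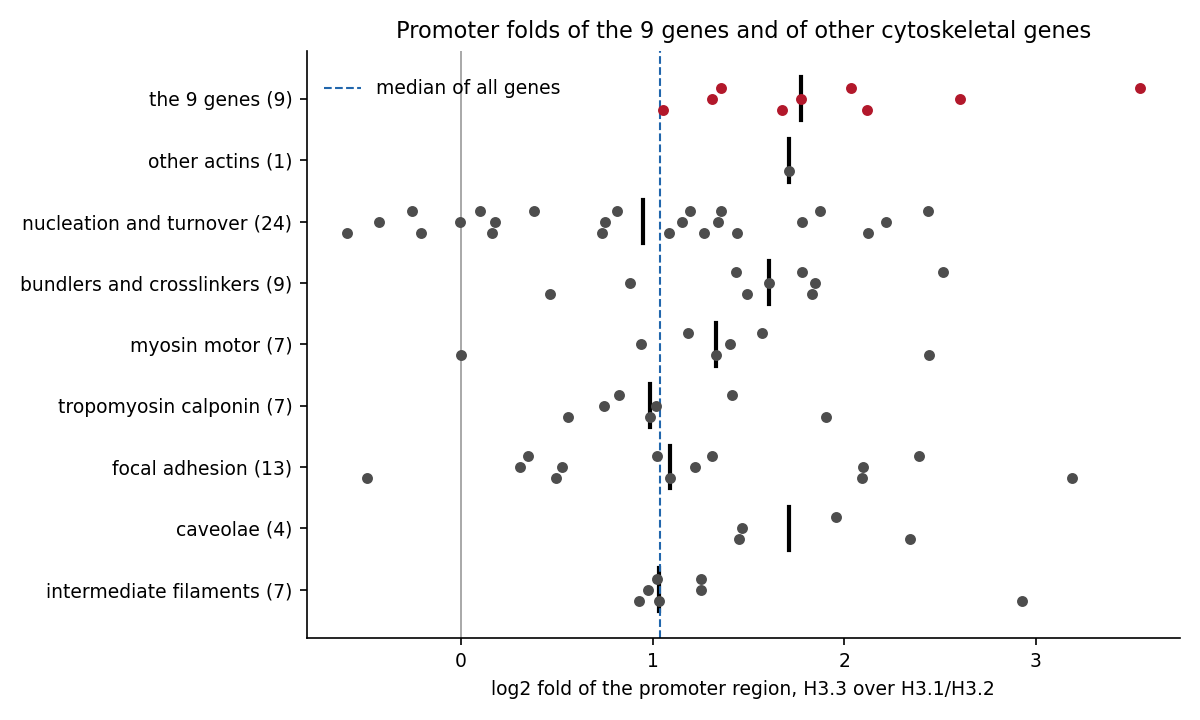
Log2 fold, H3.3 divided by H3.1/H3.2, in the nearest promoter region of the 9 genes (red) and of the other cytoskeletal genes in 8 of the 9 groups (grey), with group medians as black bars, gene numbers in brackets and the median of all genes, 1.04, as a dashed line. The red points all lie above that line, and the nucleation and focal adhesion groups spread to both sides of 0.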

How the data were processed

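Per the labels' protocols, sonicated nuclei of LM2 cells were used for ChIP, and libraries were sequenced as 75 nt single-end reads. BWA, SICER and hg38 are named per the submitters' processing notes; their versions and settings, and the use of the input, are not given there. The authors deposited 1 merged region table with, per the file headers, a pileup signal (mean and highest height) for each ChIP library, call marks and a log2 ratio with H3.3 on top. That deposited log2 ratio equalled the plain ratio of mean heights to within 1.33e-15. Highest heights were whole numbers in 100% of regions.

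From these, folds and medians were computed without a pseudocount, leaving out 4 regions on chromosome Y. Tags were height times length divided by 224, the constant in the table. Folds carry exact conditional, heights exact Poisson, and medians of 6 or more values exact order-statistic 95% intervals; the interval code was tested on simulated data. Reads had no molecular identifiers, so intervals of folds and heights cover counting error only, and a scaling of the heights would change them. Intervals of medians reflect the spread between genes, which were chosen by name and are not a random sample. The promoter window gave the authors' mark in 100% of 36810 regions with 1 gene. Coordinates are as deposited, and whether the first base counts from 0 or 1 is not stated. RefSeq (GRCh38.p14) gave gene spans and promoter sequences, the latter for 8 of the 10 genes (not *ACTB* and *TAGLN*). The symbols PRKCDBP and SDPR stood for *CAVIN3* and *CAVIN2*. Python 3.11.15, pandas 2.3.3 and SciPy 1.17.1 were used.

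The 10 genes, the list of 98 and all settings were chosen with earlier results of these data known. Named genes were the 10, those sharing their promoter regions, and the highest and lowest of each listed group, of which 1 group and 1 further gene are not reported here. Alternatives were peak heights, pseudocounts, centring, row length, row height, unshared rows and other promoter or body values.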

Additional observations from a re-analysis of the deposited data

How the results depend on the processing

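No paired analysis was possible because each antibody had 1 library. A pseudocount of 10, close to the heights themselves, left 1 of the 9 promoters at 2-fold, a median log2 fold of 0.76 for them and 0.49 for the listed cytoskeletal genes, and a promoter minus body difference of 0.74. That difference was 0.73 over the 3 genes left when mean heights had to reach 10. Only 2 promoters were unshared and only 3 were centred within 1000 bases of the start; each of them was past 2-fold. The listed genes' median was 0.91 after centring on all regions, whose median log2 fold is 0.30, and 1.42 with unshared regions only. Taken over the 7 genes and weighted by length, the body median was 0.033, the same as over 7 genes with no weighting. With all promoter regions weighted by length, the *ACTN1* promoter reversed to -0.10, because the region of 17999 bases then outweighs the one next to the start, and *ACTG1* fell to 2.14, below *VIM* (2.30) and *ACTB* (2.17). With regions of at least 1000 bases the *CAV1* body value, left with 1 region, was 1.11 in place of -0.51. Under every other alternative run, the count of promoters, the medians and the difference stayed within their intervals or within 1.5 times, and no other value past 2-fold changed sign. Depth limits short body regions, such as one of 199 bases in *MYH9* with 11 H3.3 and 5 H3.1/H3.2 tags (interval 0.705 to 8.08).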
